A study of Mus musculus with 8 samples.

Results

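The TRBJ2 segments are the joining segments of the second D-J-C cluster of the mouse T-cell receptor (TCR) β-chain locus. Their members were taken as every β-chain clonotype whose J segment was called TRBJ2, which gave 6 segments (TRBJ2-1, TRBJ2-2, TRBJ2-3, TRBJ2-4, TRBJ2-5 and TRBJ2-7) of the 12 TRBJ segments found. They held 42176 of 60131 β-chain clonotypes and 55996 of 80000 reads. A clonotype is 1 CDR3 nucleotide sequence in 1 mouse, and the CDR3 is the loop that spans the V, D and J junctions.

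TCR libraries were made from the endogenous CD8+ T cells of female C57BL/6 mice, 6 to 8 weeks old, with 3 mice in the CTX group and 5 in the CTX_CD4 group. All mice were inoculated with 200000 B16F10 melanoma cells on day 0 and treated on day 3 with cyclophosphamide at 300 mg/kg (CTX), which depletes lymphocytes. On day 5 all were given 2000000 Thy1.1 Pmel-1 cells, T cells with a transgenic TCR that recognises gp100 of melanoma, and 10000 IU interleukin-2 daily for 3 days. The CTX_CD4 group alone received 200 μg anti-CD4 antibody (clone GK1.5) weekly from day 10 for 3 weeks. On day 25, Thy1.1-negative CD8+ T cells were sorted from inguinal lymph nodes and spleen, so the sort was meant to leave out the transferred cells. The labels number the libraries as replicates without naming a mouse for each, so p-values measure only the spread between these libraries, which are called mice below. TCR libraries hold no other transcripts, so the CD8+ label could not be checked against marker genes.

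In developing T cells, the RAG recombinase cuts at recombination signals and first joins a TRBD to a TRBJ segment and then a TRBV to the joined pair. Each signal is a heptamer and a nonamer around a spacer, and the spacer ahead of a TRBJ is of the short kind. The cut ends are opened, which can leave palindromic (P) bases copied from the segment end, are trimmed, and receive bases without a template from terminal transferase. TRBJ2 lies downstream of both TRBD1 and TRBD2 and can join either, whereas TRBJ1 lies between them and can join only TRBD1 by deletion. The J segment supplies the end of the CDR3 and the framework behind it.

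The TRBJ2 segments lie on the plus strand of chromosome 6 (GRCm38) downstream of TRBD2. TRBJ2-1 lies at chr6:41542754-41542803, TRBJ2-2 at chr6:41542957-41543007 and TRBJ2-3 at chr6:41543223-41543271. TRBJ2-4 follows at chr6:41543362-41543410, TRBJ2-5 at chr6:41543453-41543501 and TRBJ2-7 at chr6:41543810-41543856. Each is annotated as a TR J gene, a single coding segment that is spliced to the constant region. The pseudogene TRBJ2-6 between the last 2 had no clonotype. The germline sequences are shown because trimming and P bases were read against them, with the bases of the CDR3 in capitals.

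TRBJ2-1: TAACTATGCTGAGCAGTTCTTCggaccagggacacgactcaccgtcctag
TRBJ2-2: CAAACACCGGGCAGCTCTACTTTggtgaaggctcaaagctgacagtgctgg
TRBJ2-3: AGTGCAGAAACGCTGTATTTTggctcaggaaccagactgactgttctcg
TRBJ2-4: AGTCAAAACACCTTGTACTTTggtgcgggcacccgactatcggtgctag
TRBJ2-5: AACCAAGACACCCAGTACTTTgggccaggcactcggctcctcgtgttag
TRBJ2-7: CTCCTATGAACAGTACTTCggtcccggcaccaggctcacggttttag

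The 28 bases ahead of each segment hold the recombination signal and are shown because the segments share parts of it. The first 9 bases (nonamer) and the last 7 (heptamer) are in capitals, and the 12 bases of the spacer are in lower case.

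TRBJ2-1: GAATTCTTGgtagcccttttcTGCTGTG
TRBJ2-2: GGTTTGTGCcagcatttccagGACTGTG
TRBJ2-3: AGTTTTTGTcctgagcctggaGGCTGTG
TRBJ2-4: AGTTTTTGTcctgtaccaagaGGCTGTG
TRBJ2-5: AGTTTTTGTgttgggttctggGGCTGTG
TRBJ2-7: GGTTTGTGTgtggggttgagcCTCTGTG

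TRBJ2-3, TRBJ2-4 and TRBJ2-5 had the same nonamer, AGTTTTTGT, and the same heptamer, GGCTGTG. That nonamer opened 0.0141% of all windows of 28 bases between TRBD1 and the end of TRBJ2-7, read on both strands, and 3 of 14 TRBJ windows. The heptamer closed 0.0235% of those windows and 4 of the 14 TRBJ windows. All 14 TRBJ windows, the 6 TRBJ2 windows among them, ended in TGTG, as did 0.588% of windows in that stretch. These shared letters are a description. TRBJ2-7 and TRBJ2-1, the most used segments as given next, had other letters in both parts. Whether the letters bear on use was not tested.

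All 8 libraries held 10000 reads after down-sampling, with 5671 to 8529 β-chain clonotypes each. Reads come from PCR without stated molecular identifiers, so intervals cover counting error only, and 3 reads (0.03% of a library) were taken as the least that can be told from absence. CTX_CD4 replicates 1 and 2 stood apart from the other pairs of mice. They shared 122 TRBJ2 CDR3 nucleotide sequences, where each of the 27 other pairs shared 31 to 62, and none of the 12 TRBJ2 clonotypes with 10 or more reads in replicate 2 was found in replicate 1. Leaving out the shared sequences from replicate 2 changed no call or direction reported here.

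TRBJ2 held about 70% of the β-chain repertoire in every mouse. Its share of reads was 70.62, 68.76 and 71.88% in the CTX mice and 68.95, 70.14, 69.67, 69.55 and 70.39% in the CTX_CD4 mice, in the order of their replicate numbers. The 5 CTX_CD4 values lay within the range of the 3 CTX values. Counting error of these shares (Wilson 95% interval) reached 0.915 percentage points at most. The share of reads was 70.4 ± 1.57% (SD, n = 3) in CTX and 69.7 ± 0.558% (SD, n = 5) in CTX_CD4, a difference of -0.68 points (p = 0.571, exact Mann–Whitney U-test, two-sided). The lowest p that can be reached with 3 against 5 mice is 0.0357, and the adjusted p over the 6 group comparisons of TRBJ2 was 0.686. By clonotypes the share was 70.71, 68.28 and 72.35% in CTX and 69.54, 70.36, 70.31, 69.11 and 70.50% in CTX_CD4. That difference was -0.484 points (p = 0.571, exact test).

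The single segments were used unequally. TRBJ2-7, the most distal of the cluster, was the most used and accounted for 21.98, 20.66 and 22.62% of reads in the CTX mice and 21.85, 21.35, 21.19, 21.39 and 21.98% in the CTX_CD4 mice. TRBJ2-1, the segment nearest TRBD2, came next at 13.95, 14.07 and 13.75% in CTX and 12.70, 13.49, 13.15, 13.95 and 16.18% in CTX_CD4. The ranges of these 2 segments, at the ends of the cluster, did not overlap.

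TRBJ2-5 took 11.86, 11.70 and 11.96% of reads in CTX and 11.44, 10.57, 11.60, 11.56 and 11.20% in CTX_CD4. Every CTX value of TRBJ2-5 was above every CTX_CD4 value, by a margin smaller than the counting error of a single library, which was up to 0.651 points. Groups failed to overlap in the reads of 1 of 12 TRBJ segments (8.33%), and that segment was TRBJ2-5. TRBJ2-4 held 8.87, 8.71 and 8.98% in CTX and 9.39, 9.95, 9.37, 8.56 and 8.86% in CTX_CD4. TRBJ2-3 held 9.08, 8.04 and 9.16% in CTX and 9.14, 9.23, 9.65, 8.69 and 7.15% in CTX_CD4. TRBJ2-4 and TRBJ2-3 could not be ordered, as TRBJ2-4 was above TRBJ2-3 in 4 of 8 mice by reads and TRBJ2-3 above TRBJ2-4 in 5 of 8 by clonotypes. TRBJ2-2 was the least used at 4.88, 5.58 and 5.41% in CTX and 4.43, 5.55, 4.71, 5.40 and 5.02% in CTX_CD4.

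**Figure D1:**
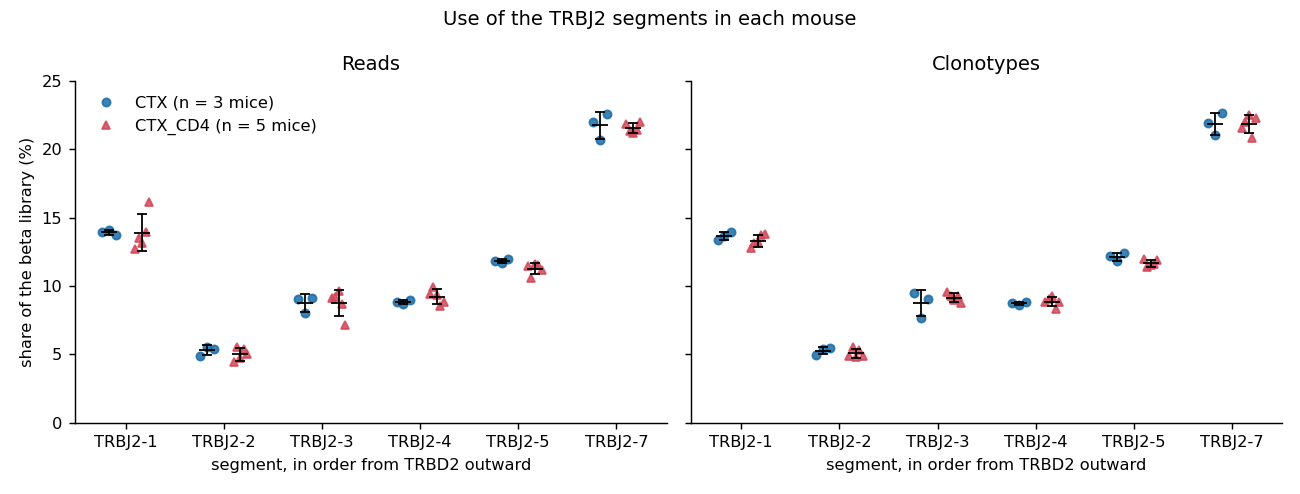
Share of β-chain reads (left) and clonotypes (right) in each mouse, in percent, for the 6 TRBJ2 segments in their order from TRBD2 outward; points are mice, with the mean and SD of each group in black. TRBJ2-7 lies between 20.66 and 22.62% of reads in all 8 mice, and TRBJ2-2 between 4.43 and 5.58%.

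Every other pair of neighbours in the order TRBJ2-7, TRBJ2-1, TRBJ2-5, TRBJ2-4 or TRBJ2-3, TRBJ2-2 kept that order in 8 of 8 mice, with ranges that did not overlap. Use did not fall or rise steadily with distance from TRBD2. The segment starts lay 578, 781, 1047, 1186, 1277 and 1634 bases from the end of TRBD2, and mean read shares over 8 mice were 13.9, 5.12, 8.77, 9.09, 11.5 and 21.6% in that order. From TRBJ2-2 outward the mean read shares increased with distance, though TRBJ2-3 and TRBJ2-4 did not differ beyond their spread, and TRBJ2-1 stood above TRBJ2-2 to TRBJ2-5. Clonotype shares, which do not count the size of a clonotype, gave means of 13.5, 5.16, 9.005, 8.83, 11.9 and 21.9%.

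Read and clonotype shares were farthest apart in CTX_CD4 replicate 5. There TRBJ2-1 held 16.18% of reads but 13.81% of clonotypes, and TRBJ2-3 held 7.15% of reads but 8.73% of clonotypes. The most abundant TRBJ2-1 clonotype of that mouse had 78 reads, and its most abundant TRBJ2-3 clonotype had 13. The next widest gap was that of TRBJ2-7 in CTX_CD4 replicate 3, with 21.19% of reads and 22.54% of clonotypes.

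Use of the segments was not shown to differ between the groups. Reads per segment were compared with edgeR's quasi-likelihood test over all 12 TRBJ segments, of which 0 passed an adjusted p of 0.05 (0% called) and 0 had an unadjusted p under 0.05. The log2 differences (CTX_CD4 over CTX) were 0.01 for TRBJ2-1, -0.07 for TRBJ2-2, 0.01 for TRBJ2-3, 0.07 for TRBJ2-4, -0.06 for TRBJ2-5 and -0.01 for TRBJ2-7. Their standard errors ran from 0.05 for TRBJ2-7 to 0.10 for TRBJ2-2, and the adjusted p was 0.921 for each. The sign of TRBJ2-1 turned with library totals in place of TMM scaling and with DESeq2, and that of TRBJ2-3 with DESeq2, so no direction is given for these. Clonotypes per segment gave 0 of 12 calls as well (0% called), with a lowest adjusted p of 0.636 and no unadjusted p under 0.05, and DESeq2 called 0 in both.

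The segments differed in how much of their germline end was kept. Trimming was read as the number of bases missing between the germline start of the J segment and the longest match at the end of the CDR3. TRBJ2-3 lost fewest, with a mean of 1.48, 1.32 and 1.42 bases per clonotype in the CTX mice and 1.32, 1.56, 1.42, 1.47 and 1.54 in the CTX_CD4 mice. TRBJ2-7 lost most, 3.81, 3.70 and 3.75 in CTX and 3.76, 3.81, 3.73, 3.84 and 3.70 in CTX_CD4. No mouse had a TRBJ2-3 value above 1.56 or a TRBJ2-7 value below 3.70.

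Between these lay TRBJ2-2 (2.32 ± 0.0952 bases, SD, n = 8 mice), TRBJ2-4 (2.33 ± 0.0862), TRBJ2-5 (3.11 ± 0.0802) and TRBJ2-1 (3.46 ± 0.107). TRBJ2-2 and TRBJ2-4 overlapped in range, and the other neighbours in this order did not, except TRBJ2-5 and TRBJ2-1, where the highest value of the first (3.28) passed the lowest of the second (3.27). The share of clonotypes with the whole germline end was 49.12 ± 1.65% for TRBJ2-3 and 37.98 ± 1.28% for TRBJ2-4. It was 27.21 ± 1.93% for TRBJ2-2, 19.11 ± 1.1% for TRBJ2-5, 18.95 ± 0.897% for TRBJ2-7 and 11.95 ± 0.925% for TRBJ2-1 (SD, n = 8 mice each). By their means, the 4 most trimmed segments were TRBJ2-7, TRBJ2-1, TRBJ2-5 and TRBJ2-4, in the same order as their read shares. TRBJ2-2 and TRBJ2-3 changed places, and TRBJ2-4 passed TRBJ2-2 in trimming by less than the spread. In the other cluster, TRBJ1-6 lost 3.93 to 4.52 bases per clonotype with 2.54 to 3.32% of reads over the 8 mice. A link between trimming and use was not tested.

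The base just ahead of a whole J end was most often the one a P nucleotide would give, for each of the 6 segments. A P base is the complement of the first germline base, which is T for TRBJ2-3, TRBJ2-4 and TRBJ2-5, G for TRBJ2-2 and TRBJ2-7 and A for TRBJ2-1. It was present in 72.7% of 2650 TRBJ2-3 clonotypes with a whole end, in 69.1% of 1364 of TRBJ2-5 and in 60.8% of 2017 of TRBJ2-4. TRBJ2-7 had it in 60.6% of 2488, TRBJ2-2 in 54.7% of 846 and TRBJ2-1 in 41.1% of 970. The base T, which is the P base of TRBJ2-3, stood ahead of 21.9% of whole TRBJ2-1 ends and 17.0% of whole TRBJ2-7 ends. These bases are counted over clonotypes of 8 mice, without a test.

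**Figure D2:**
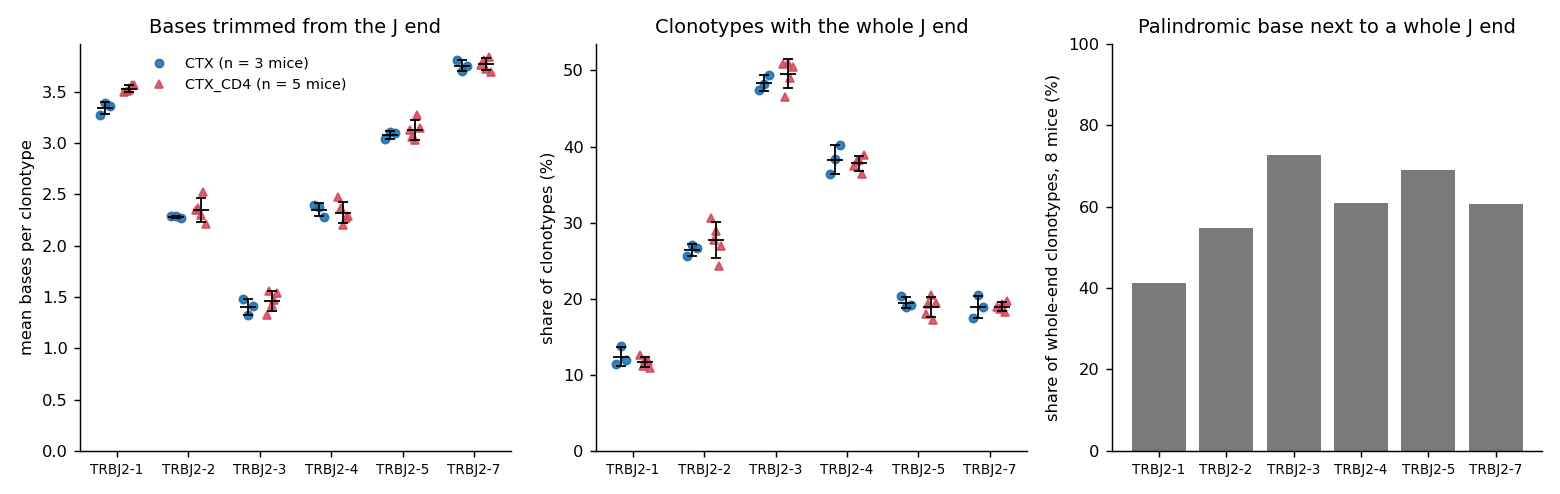
Bases trimmed from the J end (left) and share of clonotypes with the whole end (middle) per mouse, with the mean and SD of each group in black, and share of whole-end clonotypes of all 8 mice with the palindromic base next to the J segment (right), for the 6 TRBJ2 segments. TRBJ2-3 is the least trimmed segment and has the highest bar on the right, 72.7%.

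P bases also touch the deposited positions. In 7553 TRBJ2 clonotypes (17.9%) the deposited J start lay ahead of the germline start of the segment, most often for TRBJ2-3 (37.9% of its clonotypes) and least for TRBJ2-1 (5.90%). Of these, 6777 held the whole germline end, and in 5529 (81.6%) all extra bases were those of the palindrome. P bases assigned to J in this way are not among the unassigned nucleotides given below.

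CDR3 length followed the segment. TRBJ2-7, which supplies 19 germline bases to the CDR3, had the shortest CDR3 of the TRBJ2 segments. Its means were 39.43, 39.33 and 39.47 nucleotides in the CTX mice and 39.49, 39.40, 39.43, 39.44 and 39.66 in the CTX_CD4 mice. TRBJ2-3, which supplies 21 bases and was the least trimmed, had means of 43.85, 44.16 and 43.96 in CTX and 44.18, 43.99, 43.97, 43.96 and 44.12 in CTX_CD4. TRBJ2-2 supplies 23 bases and had means of 43.50, 44.24 and 43.76 in CTX and 44.25, 43.32, 43.49, 44.08 and 44.14 in CTX_CD4. The TRBJ2-7 values lay below those of the other TRBJ2 segments in every mouse. In the other cluster, TRBJ1-1 was about as short, with a mean of 39.55 nucleotides over 8 mice and 39.30 in CTX replicate 2. The groups overlapped in length for each of the 6 TRBJ2 segments.

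TRBJ2-1 (22 bases) averaged 42.53 ± 0.233, TRBJ2-4 (21 bases) 42.44 ± 0.188 and TRBJ2-5 (21 bases) 41.99 ± 0.178 nucleotides (SD, n = 8 mice). After trimming, the J segment contributed 20.7 bases for TRBJ2-2, 19.6 for TRBJ2-3, 18.7 for TRBJ2-4, 18.5 for TRBJ2-1, 17.9 for TRBJ2-5 and 15.2 for TRBJ2-7. The most frequent length was 42 nucleotides for TRBJ2-1, TRBJ2-4, TRBJ2-5 and TRBJ2-7 and 45 for TRBJ2-2 and TRBJ2-3. Lengths were multiples of 3 in every clonotype, as the files hold in-frame receptors only.

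**Figure D3:**
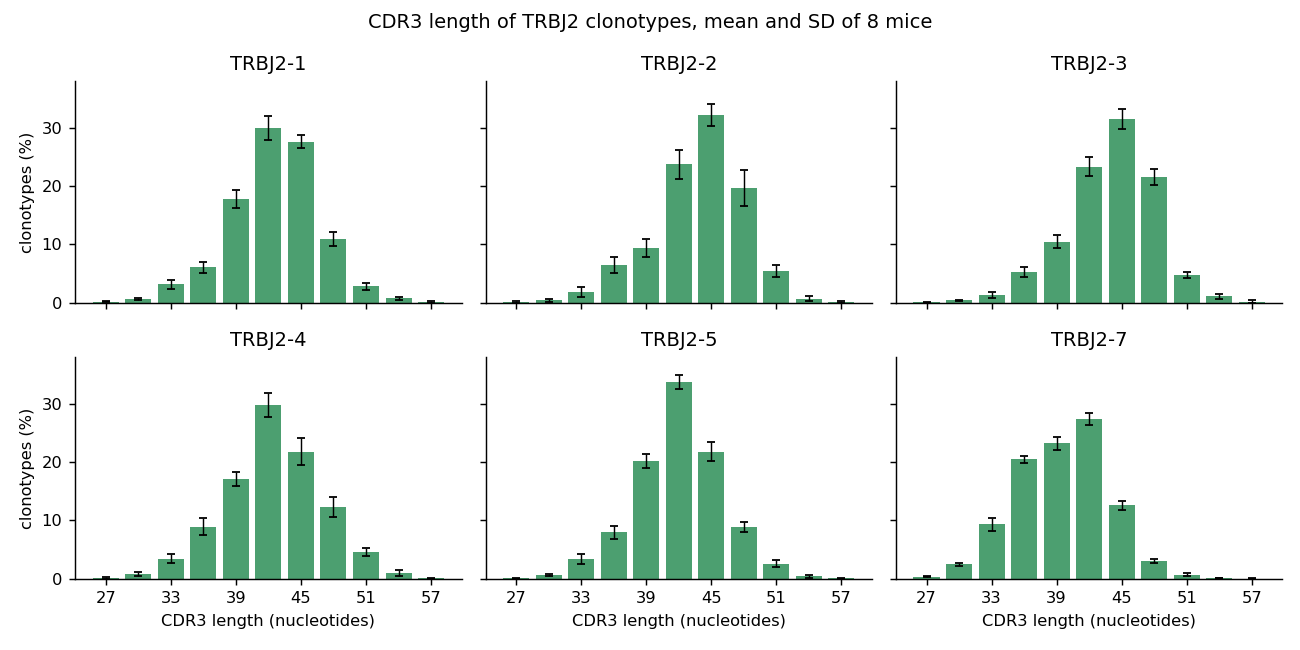
Share of clonotypes, in percent, by CDR3 length in nucleotides for each TRBJ2 segment, as the mean and SD of 8 mice (lengths of 27 to 57 are drawn). The distribution of TRBJ2-7 sits to the left of the others, and TRBJ2-2 and TRBJ2-3 have their highest bar at 45 nucleotides.

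For TRBJ2 as a whole, the mean CDR3 length was 41.77, 41.72 and 41.84 nucleotides in CTX and 41.91, 41.68, 41.60, 41.79 and 41.73 in CTX_CD4. The groups overlapped, with a difference of -0.0348 nucleotides (p = 0.786, exact Mann–Whitney U-test). Within mice, TRBJ2 clonotypes were longer than TRBJ1 clonotypes in 8 of 8 mice, by 0.411 ± 0.121 nucleotides (SD, n = 8; p = 0.00781, exact two-sided sign-flip test, the smallest p that 8 mice allow; adjusted p = 0.0117 over 3 such comparisons). This holds for the clusters as a whole, as single segments overlapped. Mean lengths of TRBJ1 segments over 8 mice ran from 39.5 (TRBJ1-1) to 43.1 nucleotides (TRBJ1-4).

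Unassigned nucleotides are the CDR3 bases that the deposited positions place in no V, D or J segment. They averaged 2.91, 2.95 and 2.99 per TRBJ2 clonotype in CTX and 2.97, 2.96, 2.88, 3.01 and 3.01 in CTX_CD4. The difference was 0.0178 bases (p = 0.571, exact Mann–Whitney U-test). Among segments the means ran from 2.85 ± 0.0548 for TRBJ2-3 to 3.02 ± 0.0692 for TRBJ2-7 (SD, n = 8 mice). The share of clonotypes with no unassigned base was 17.56 ± 1.02% for TRBJ2-3 and 14.77 ± 0.847% for TRBJ2-7, the highest and lowest of the 6. Bases assigned to J ahead of its germline start are not counted here. Such a J start was found in 37.9% of TRBJ2-3 and 15.8% of TRBJ2-7 clonotypes, and its part in this order was not tested.

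Against TRBJ1 the sign of the difference depended on whether clonotypes with and without a called D were pooled or taken apart. TRBJ2 clonotypes had fewer unassigned bases than TRBJ1 clonotypes in 8 of 8 mice, by -0.102 ± 0.0502 (SD, n = 8; p = 0.00781, exact sign-flip test; adjusted p = 0.0117). Among clonotypes with a D called, TRBJ2 had more, 2.56 against 2.46, a difference of 0.106 (p = 0.0156, exact sign-flip test). Among clonotypes with no D called TRBJ2 also had more, 4.24 against 4.16. A D was called in 76.2 ± 0.322% of TRBJ2 clonotypes and 64.3 ± 0.944% of TRBJ1 clonotypes. Bases placed in a called D are not counted as unassigned, and the part of the D calls in the pooled difference was not tested.

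TRBD2 made up 57.7 ± 1.13% of the D calls of TRBJ2 clonotypes (SD, n = 8 mice). With 10 or more D bases matched, where the call is longer, it was 74.3 ± 1.27%. For TRBJ1, which lies upstream of TRBD2, the same shares were 8.75 ± 0.727% and 2.90 ± 0.680%, so short D calls carry some error. A minimum of 10 bases is closer to the germline length of TRBD1 (12 bases) than to that of TRBD2 (14). The part of this in the rise for TRBJ2 was not tested. By segment, TRBD2 was called in 32.5 ± 3.77% of TRBJ2-2 clonotypes and in 43.3 to 47.9% of those of the other 5 segments.

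TRBJ2 and TRBJ1, each taken as a whole, differed in their TRBV partners. Clonotypes per TRBV gene were compared between the TRBJ2 and TRBJ1 parts of each library with edgeR's quasi-likelihood test and the mouse as a block. Of 22 TRBV genes tested, 17 passed an adjusted p of 0.05 (77.3%), 9 with a larger share in TRBJ2 (40.9%) and 8 with a larger share in TRBJ1 (36.4%). With library totals in place of the TMM scaling, the split was 7 and 10. Log2 differences are TRBJ2 over TRBJ1. For each of the 10 TRBV genes of lowest p, the mean shares of single TRBJ2 and TRBJ1 segments overlapped in range. TRBV17 made up 4.70 to 8.15% of the clonotypes of TRBJ2 segments and 2.26 to 4.76% of those of TRBJ1 segments. The ranges were 1.91 to 2.52% and 1.40 to 4.12% for TRBV20, and 9.89 to 12.8% and 3.83 to 12.3% for TRBV16.

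TRBV17 had the largest difference. TRBJ2 held 82.3, 82.6 and 79.8% of TRBV17 clonotypes in the CTX mice and 79.8, 79.8, 79.5, 78.1 and 79.6% in the CTX_CD4 mice, and each value was above the TRBJ2 share of all clonotypes in that mouse. The log2 difference was 0.84 ± 0.07 (SE, adjusted p = 1.01e-09, edgeR). TRBV20 lay at the other end, with 58.5, 59.4 and 54.4% in CTX and 60.9, 63.3, 63.1, 65.7 and 60.7% in CTX_CD4. Each TRBV20 value was below the TRBJ2 share of its mouse, and the log2 difference was -0.55 ± 0.08 (adjusted p = 4.56e-06, edgeR).

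The other TRBV genes with a higher share in TRBJ2 among the 10 of lowest p were TRBV14 (log2 difference 0.55, adjusted p = 3.48e-06 in edgeR), TRBV15 (0.42), TRBV4 (0.40) and TRBV16 (0.25). TRBJ2 took 76.69 ± 3.97% of TRBV14, 75.22 ± 1.43% of TRBV15, 74.92 ± 2.48% of TRBV4 and 72.88 ± 2.2% of TRBV16 clonotypes (SD, n = 8 mice). Lower in TRBJ2 were TRBV26 (-0.43), TRBV31 (-0.35), TRBV19 (-0.34) and TRBV29 (-0.34), with TRBJ2 shares of 62.65 ± 3.35, 64.21 ± 3.91, 64.10 ± 2.99 and 64.21 ± 2.52%. TRBV31 is the gene that lies downstream of TRBJ2 in inverse orientation and joins by inversion.

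By chromosome position, which was not tested, the calls were mixed in places and ran together in others. TRBV14, TRBV15, TRBV16 and TRBV17, which follow each other, were all higher in TRBJ2, and of the 6 tested genes from TRBV19 to TRBV29, 4 were lower and TRBV23 and TRBV24 did not pass. TRBV30, the next gene, was higher (0.46, adjusted p = 0.0414 in edgeR). TRBV13-1 was lower (-0.16) between TRBV12-1 and TRBV12-2, which were higher, and TRBV1 and TRBV2 were lower beside TRBV3 and TRBV4, which were higher. In the exact sign-flip test of shares, TRBV12-1, TRBV3 and TRBV30 did not pass (adjusted p = 0.124, 0.0752 and 0.136). The mixed order in these places thus rests in part on calls that depend on the test. Without clonotypes of 1 read, 4 of 18 TRBV genes passed, TRBV16 and TRBV17 higher and TRBV1 and TRBV31 lower, with far fewer clonotypes per gene.

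**Figure D4:**
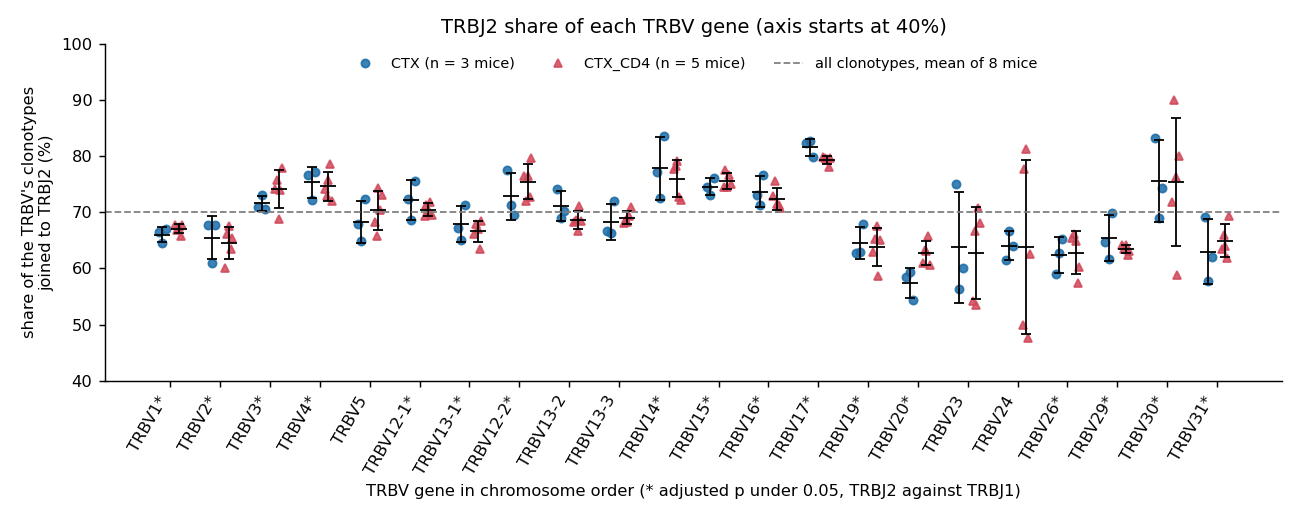
Share of the clonotypes of each TRBV gene that were joined to TRBJ2, in percent, per mouse, with TRBV genes in chromosome order, the mean and SD of each group in black, and the TRBJ2 share of all clonotypes as a broken line. TRBV17 lies at 78.1% or above in all 8 mice, and TRBV20 at 65.7% or below.

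The most frequent TRBV partners were shared within TRBJ2 and with part of TRBJ1. TRBV13-3, TRBV16 and TRBV13-1 were the 3 most frequent partners of each of the 6 segments, at 8.51 to 12.8% of its clonotypes, and they also led in TRBJ1-1, TRBJ1-3, TRBJ1-4 and TRBJ1-5. The overlap of TRBV shares is 100% for identical profiles. TRBJ2-7 was the segment most like each of the other 5, with overlaps from 88.9% with TRBJ2-2 to 92.1% with TRBJ2-1 over 8 mice. TRBJ2-1 was the most like TRBJ2-7. Overlaps ran from 86.6 to 92.1% between TRBJ2 segments and from 73.6 to 87.6% between a TRBJ2 and a TRBJ1 segment, so these ranges overlapped. TRBJ2-3, for example, had 87.1% with TRBJ1-4 and 86.7% with TRBJ2-5. TRBJ2-7 holds the most clonotypes of the 6, which lowers the sampling error of its profile. Reads of 208 TRBV-TRBJ pairs gave 0 calls between CTX and CTX_CD4 (0% called, edgeR), with 14 pairs at an unadjusted p under 0.05 and 12 in DESeq2.

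Expanded clonotypes, taken as those of 10 or more reads, carried TRBJ2 less often in CTX than in CTX_CD4. TRBJ2 made up 6 of 14, 4 of 8 and 4 of 8 expanded clonotypes in the CTX mice, or 42.9, 50 and 50%. In the CTX_CD4 mice it made up 29 of 42, 12 of 17, 16 of 26, 42 of 52 and 54 of 95, or 69.0, 70.6, 61.5, 80.8 and 56.8%. The TRBJ2 share of all clonotypes averaged 70.45% in CTX and 69.96% in CTX_CD4. Expanded clonotypes averaged 67.76% in CTX_CD4, with mice on both sides of that share, and 47.62% in CTX, with every mouse below it. The contrast thus lies in the low CTX values, which rest on 14 of 30 expanded clonotypes. The groups did not overlap, but the Wilson 95% intervals of single mice were wide, 21.4 to 67.4% for CTX replicate 1 and 46.8 to 66.3% for CTX_CD4 replicate 5. The difference was 20.1 points (p = 0.0357, exact Mann–Whitney U-test, the lowest that can be reached; adjusted p = 0.107 over 6 comparisons), so it failed the correction. With a minimum of 5 reads the difference was 5.61 points (p = 0.143), and with 20 reads 26.0 points (p = 0.571, exact tests). At 20 reads, CTX replicate 3 had no TRBJ2 clonotype left (largest 16 reads) and CTX replicate 2 no TRBJ1 clonotype (largest 11 reads). The CTX shares at that minimum thus rest on very few clonotypes. Without CTX_CD4 replicates 2 and 5 the difference at 10 or more reads was 22.8 points (p = 0.1, the smallest that 3 against 3 mice allow, exact test).

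TRBJ2 reads also lay more often in expanded clonotypes in CTX_CD4. They were 2.28, 1.82 and 0.737% of TRBJ2 reads in CTX and 6.90, 3.35, 5.64, 10.8 and 23.6% in CTX_CD4. Again the groups did not overlap, with a difference of 8.44 points (p = 0.0357, exact Mann–Whitney U-test; adjusted p = 0.107; p = 0.0893 in an exact permutation test of the means). Without CTX_CD4 replicate 5 the difference was 5.05 points. Of TRBJ1 reads, 6.16, 1.34 and 6.40% lay in expanded clonotypes in CTX and 10.3, 3.45, 11.5, 5.35 and 23.3% in CTX_CD4. The TRBJ1 values were also higher on average in CTX_CD4, with groups that overlapped, and whether the difference between the groups was unlike for TRBJ1 and TRBJ2 reads was not tested. Within mice, the share of TRBJ2 clonotypes that were expanded was -0.159 ± 0.426 points from that of TRBJ1 clonotypes (SD, n = 8; p = 0.391, exact sign-flip test), higher in 2 of 8 mice. That difference was not shown to depend on the group (p = 0.571, exact Mann–Whitney U-test).

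Among clonotypes of fewer reads the groups had no common order. Clonotypes of 3 to 4 reads were TRBJ2 in 76.4, 74.2 and 78.8% of CTX cases and in 68.9, 69.4, 75.7, 66.3 and 69.1% of CTX_CD4 cases. One CTX_CD4 mouse reached into the CTX range. For clonotypes of 2 reads the means were 73.8 ± 2.32% in CTX and 70.7 ± 1.14% in CTX_CD4, and for those of 5 to 9 reads 67.95 ± 7.73% and 68.8 ± 8.17%. For clonotypes of 1 read the means were 69.8 ± 1.86% (SD, n = 3) and 69.95 ± 0.656% (SD, n = 5). When clonotypes of 1 read were left out, the TRBJ2 share of reads was lower in CTX_CD4 by -2.48 points (p = 0.0357, exact Mann–Whitney U-test), without overlap.

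**Figure D5:**
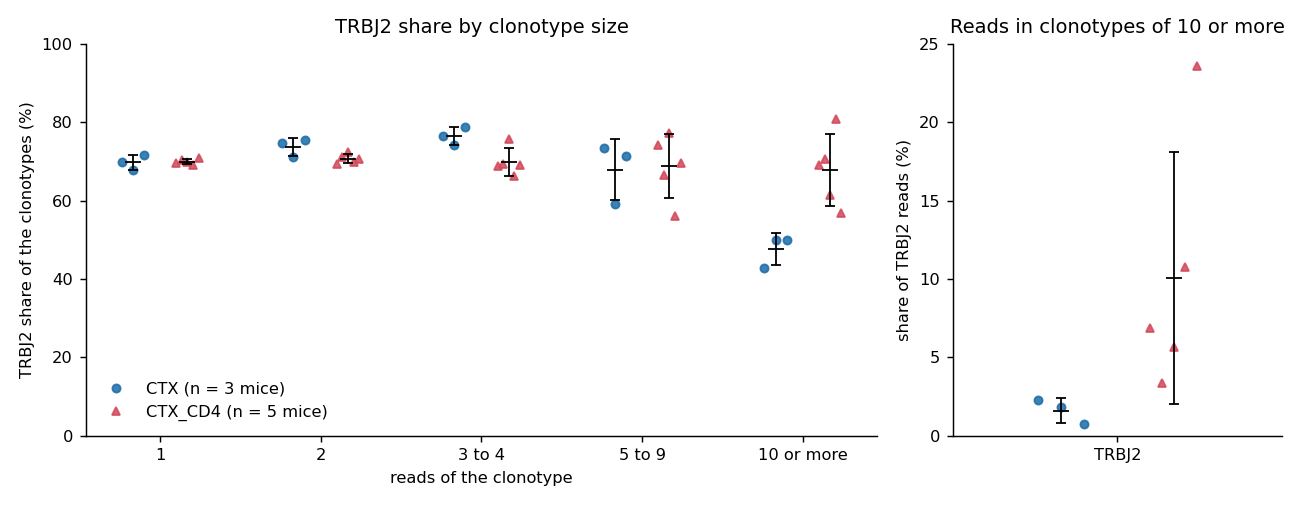
Share of clonotypes that carry TRBJ2, in percent, by the number of reads of the clonotype (left), and share of TRBJ2 reads in clonotypes of 10 or more reads (right), per mouse, with the mean and SD of each group in black. In the class of 10 or more reads the 3 CTX mice lie between 42.9 and 50% and the 5 CTX_CD4 mice between 56.8 and 80.8%.

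By segment, the 153 expanded TRBJ2 clonotypes of the CTX_CD4 mice fell on TRBJ2-7 (38), TRBJ2-1 (37), TRBJ2-5 (26), TRBJ2-4 (24), TRBJ2-2 (15) and TRBJ2-3 (13). In the CTX mice the 14 were 4 of TRBJ2-7, 3 each of TRBJ2-3 and TRBJ2-5, 2 of TRBJ2-4 and 1 each of TRBJ2-1 and TRBJ2-2. The counts for single segments are too small for a comparison between groups.

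The most abundant TRBJ2 clonotype of each mouse is shown as an example of the expanded sequences, with unassigned bases in capitals.

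CTX replicate 1: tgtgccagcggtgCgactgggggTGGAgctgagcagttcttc
CTX replicate 2: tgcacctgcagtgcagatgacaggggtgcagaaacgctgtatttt
CTX replicate 3: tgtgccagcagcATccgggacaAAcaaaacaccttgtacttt
CTX_CD4 replicate 1: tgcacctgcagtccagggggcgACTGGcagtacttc
CTX_CD4 replicate 2: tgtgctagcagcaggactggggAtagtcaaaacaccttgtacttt
CTX_CD4 replicate 3: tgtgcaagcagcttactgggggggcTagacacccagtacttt
CTX_CD4 replicate 4: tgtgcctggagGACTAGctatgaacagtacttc
CTX_CD4 replicate 5: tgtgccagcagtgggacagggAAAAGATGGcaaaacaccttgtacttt

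In CTX replicates 1 and 2 these had 94 reads (TRBV13-2 with TRBJ2-1) and 58 reads (TRBV1 with TRBJ2-3), and both led their library. In CTX replicate 3 the clonotype (TRBV4 with TRBJ2-4) had 16 reads and ranked 5 in its library. The CTX_CD4 clonotypes had 45 reads (TRBV1 with TRBJ2-7), 70 (TRBV17 with TRBJ2-4), 69 (TRBV16 with TRBJ2-5), 71 (TRBV31 with TRBJ2-7) and 162 (TRBV13-3 with TRBJ2-4). The largest, 1.62% of its library (Wilson 95% interval 1.39 to 1.89%), held 9 unassigned bases. No pair of the 8 had the same TRBV and TRBJ2 segment together, and 7 were found in 1 mouse. The exception was that of CTX_CD4 replicate 1, with 3 reads in replicate 2, the pair of libraries with more sequences in common.

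Few TRBJ2 sequences were found in several mice, and those had few unassigned bases. Of 41061 TRBJ2 CDR3 sequences, 929 (2.26%) were in 2 or more mice, against 2.19% of TRBJ1 sequences. Here and in the pairs of mice above, a sequence counted as found from 1 read. That is below the 3 reads taken as the least that can be told from absence. Sequences of 1 mouse had a mean of 3.04 unassigned bases, the 784 of 2 mice 1.48, and the 145 of 3 or more mice 0.828. The share with no unassigned base was 14.5, 39.2 and 56.6% in the same order, and the mean length 41.9, 39.6 and 37.6 nucleotides. The 5 sequences found in the most mice are shown with unassigned bases in capitals.

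TRBV13-3 and TRBJ2-1, 8 mice: tatgctgagcagttcttc
TRBV13-1 and TRBJ2-7, 5 mice: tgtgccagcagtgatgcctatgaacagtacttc
TRBV13-3 and TRBJ2-5, 5 mice: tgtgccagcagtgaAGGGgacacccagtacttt
TRBV13-1 and TRBJ2-7, 5 mice: tgtgccagcagtgatgTtgaacagtacttc
TRBV13-3 and TRBJ2-7, 5 mice: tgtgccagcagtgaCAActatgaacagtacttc

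The sequence found in all 8 mice has 18 bases, lacks the V part of a CDR3 and had 4 to 11 reads per mouse. The others had 6 to 10 reads in all over 5 mice, at 1 to 3 reads in each, and 3 of the 4 used TRBJ2-7. The TRBJ2 sequence found in all 8 mice reached 10 reads in 1 mouse. TRBJ1 also had sequence found in 8 mice. Leaving out all β-chain sequences found in 8 mice, of TRBJ1 and TRBJ2 alike, changed the TRBJ2 share of expanded clonotypes. It then differed by 18.7 points between groups (p = 0.0357, exact Mann–Whitney U-test).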

How the data were processed

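The authors amplified TCR chains in nested PCR from 100 ng RNA per sample, ran them on a MiSeq, aligned the reads in MiXCR (version not given in the sources used here), used VDJtools to extract chains and reduced every library to 10000 reads. Submitters' processing notes name bcl2fastq and the build mm10. The deposited β-chain tables give, per clonotype, a count of reads, its fraction (equal to the count over 10000, not used further) and the 0-based ends of V, D and J in the CDR3. The α-chain tables were not used here.

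From these, shares, lengths, unassigned bases and J trimming were computed per mouse (Python 3.11.15, pandas 2.3.3, scipy 1.17.1). Germline sequences came from RefSeq GRCm38.p6 at GENCODE vM21 coordinates. Groups come from the sample labels. Exact Mann–Whitney tests ran over the 56 splits of 8 mice, and sign-flip tests over 256 sign patterns. Counts were tested with edgeR 4.0.16 (TMM, features with 10 or more in 3 or more columns, threshold 0.05 after Benjamini-Hochberg adjustment), and DESeq2 1.42.0 was the alternative tool; both steps were tested on simulated data. The 0 columns of per-sample values in the tables used were left unmapped.

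All 6 segments were named, with at most 10 TRBV partners and 10 pairs of lowest p, the most abundant TRBJ2 clonotype of each mouse and the 5 sequences found in the most mice. Members and lists were chosen with earlier results of these data known. Alternatives covered the scaling, the filter, the minimum for expansion, clonotypes of 1 read, the shared sequences and each mouse left out in turn. Leaving out sequences found in all 8 mice, or CTX_CD4 replicates 2 and 5 together, was chosen after seeing the data.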

Additional observations from a re-analysis of the deposited data

How the results depend on the processing

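Most TRBJ2 clonotypes had 1 read (82.7 ± 4.11% over 8 mice), which limits what read numbers can show, and 3 against 4 mice or 2 against 5 cannot reach a p under 0.05 in the exact test (smallest 0.0571 and 0.0952). The TRBJ2 share of expanded clonotypes differed by 16.9 to 22.9 points with each mouse left out in turn, by 21.9 without the most abundant clonotypes, 5.61 at 5 reads, 26.0 at 20 reads and 22.8 without CTX_CD4 replicates 2 and 5, and passed the threshold in none of these. The share of TRBJ2 reads in expanded clonotypes differed by 5.05 to 10.1 points with each mouse left out, by 8.44 in the permutation test of means (p = 0.0893, exact) and by 6.16 without replicates 2 and 5. For the 3 mice of each group with the same replicate number, the replicate block gave differences of 19.4 and 3.69 points for these (p = 0.25, the smallest such exact test allows) and turned the sign of the unassigned bases to -0.0115. It changed no other call; TRBJ2-1 reads turned to -0.081 (log2) and TRBJ2-7 clonotypes to 0.012 with it. Same-numbered mice deviated together in replicates 1 and 3 (r = 0.368 and 0.622 over 12 segments) but not in replicate 2 (-0.162), so the numbers were not taken as pairs.

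Leaving out 1 mouse at a time gave -1.51 to 0.05 points for the read share and -1.57 to 0.466 for the clonotype share, both positive only without CTX replicate 3. It gave -0.0774 to 0.000828 nucleotides for CDR3 length, -0.00118 to 0.0390 for unassigned bases and -0.240 to -0.0249 points for the expanded share against TRBJ1, where p was 0.0313 without CTX_CD4 replicate 4 (exact sign-flip test). Without clonotypes of 1 read the read share fell by 2.48 points, CDR3 length turned to 0.107 nucleotides, 4 TRBV partners passed, and TRBJ2-1 and TRBJ2-3 reads turned to -0.047 and -0.057 (log2). With a D called, the unassigned difference from TRBJ1 was 0.106. Log2 differences of reads turned to -0.0030 (TRBJ2-1, library totals), -0.0037 and -0.0025 (TRBJ2-1 and TRBJ2-3, DESeq2) and -0.0059 (TRBJ2-4, without the most abundant clonotypes), and of TRBJ2-7 clonotypes to 0.0030 when merged by amino acids. With each mouse left out, read differences ran from -0.067 to 0.032 for TRBJ2-1, -0.054 to 0.063 for TRBJ2-3 and -0.047 to 0.030 for TRBJ2-7, and clonotype differences from -0.032 to 0.138 for TRBJ2-3, -0.0029 to 0.043 for TRBJ2-4 and -0.045 to 0.033 for TRBJ2-7. TRBV partner calls numbered 15 to 17 with a mouse left out, 16 in DESeq2 and 14 in the exact sign-flip test. The cause of these changes was not tested.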

Other observations

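Trimming of TRBJ2-1 differed between groups without overlap, a pattern chosen after its values were seen. Its mean was 3.27, 3.39 and 3.36 bases in the CTX mice and 3.50, 3.51, 3.51, 3.57 and 3.57 in the CTX_CD4 mice. Groups failed to overlap in trimming for 2 of 12 TRBJ segments (16.7%), TRBJ2-1 and TRBJ1-4, and for none of the other 5 TRBJ2 segments. No test was run on it.

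TRBJ2 clonotypes with TRBD2 were longer than those with TRBD1, at 43.6 ± 0.0942 against 41.5 ± 0.160 nucleotides (SD, n = 8 mice), with 9.22 ± 0.0482 against 7.49 ± 0.0888 D bases and 2.51 ± 0.0515 against 2.64 ± 0.0579 unassigned bases. The germline TRBD2 has 14 bases and TRBD1 12. The TRBD2 share of D calls also went from 57.7 to 74.3% when 10 or more D bases had to match. What part either has in these lengths was not tested.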
